A study of Homo sapiens with 10 samples.

Results

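The enzymes described here remove superoxide and peroxides or attach glutathione to reactive compounds: glutathione peroxidases (GPX), peroxiredoxins (PRDX), superoxide dismutases (SOD) and catalase (CAT), cytosolic and microsomal glutathione transferases (GST and MGST), glutaredoxins (GLRX), and thioredoxins with GSR, GSS and TXNRD2. They were taken by gene symbol from a table of read counts, which gave 48 of its 22626 rows, and the rule uses no measured value. The RNA came from ARPE-19, an established human cell line of the retinal pigment epithelium (RPE). It was sequenced in 5 libraries from a control medium with 5.5 mM glucose and 32 mM mannitol, and in 5 from a high glucose (HG) medium with 37.5 mM glucose, after 48 h. Mannitol, which cells hardly use, was in the control medium only, so a difference between the groups may belong to either sugar. Both groups were grown in DMEM with fetal bovine serum. No label says whether the 5 libraries of a group came from separate cultures, so a p-value here measures the spread between these libraries, which may be technical.

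Superoxide, which leaks from the mitochondrial respiratory chain and is made by oxidases, is turned into hydrogen peroxide by the dismutases. Catalase splits hydrogen peroxide in the peroxisome, most peroxiredoxins reduce it with electrons from thioredoxin, and most glutathione peroxidases reduce peroxides with glutathione. Glutathione and thioredoxin are then reduced again at the expense of NADPH. The glutathione transferases join glutathione to electrophiles such as the breakdown products of oxidized lipids. The RPE lives with strong light, high oxygen and a daily load of polyunsaturated lipid from shed photoreceptor tips, and its oxidative defence has been studied for that reason.

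Total counts were between 33039260 and 45864176 in the control libraries and between 32448991 and 44400714 in the HG libraries, so that 3 counts correspond to between 0.0654 and 0.0925 CPM, the count scaled to library size. TXNIP and ARRDC4, which glucose is known to induce, were higher in HG by 3.15 and 0.74 on the log2 scale (edgeR adjusted p = 5.55e-05 and 0.00414). Of 13 RPE markers, OTX2 (29.8 to 36.3 FPKM) and MITF (8.46 to 12.8 FPKM) were present in every library, RPE65 had at most 6 counts and TTR had 0. BEST1 was at 57.2 and 120.3 FPKM in control replicates 1 and 4 and at 0.237 to 1.63 FPKM in the other 8 libraries (log2 fold change -4.97, edgeR adjusted p = 0.067). KRT8, KRT18 and PMEL were lower in HG, by 0.62, 0.68 and 0.71 on the log2 scale (edgeR adjusted p = 0.00159, 0.00142 and 0.00854). Of 4 fibroblast markers COL1A1 and PDGFRB were lower in HG, by 1.32 and 0.78 on the log2 scale (edgeR adjusted p = 2.86e-05 and 0.000123), COL1A2 had at most 4 counts and LUM had 0. The summed level of the 4 was 34.4 to 43.7 FPKM in control and 17.7 to 21.1 FPKM in HG libraries, against 1544 to 1921 and 987.9 to 1295 FPKM for the RPE markers, most of it from the keratins KRT8 and KRT18. Without these and BEST1 the RPE markers summed to 52.8 to 57.4 FPKM in control and 47 to 50.9 FPKM in HG, and the part of these markers in the results below was not tested. Markers of blood, endothelium, and neurons and glia summed to at most 0.0156, 0.0603 and 0.1004 FPKM in any library, and PDE6B, a subunit of a photoreceptor phosphodiesterase, was at 4.14 to 7.62 FPKM. Control replicate 2 and the library of the deposited column HG_1 stood apart from the rest in having higher values for GC-rich genes. The log2 level rose by 0.17 and 0.188 per 10 percentage points of GC in these libraries, and changed by -0.0916 to -0.00519 in the other 8.

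HG was accompanied by small changes in both directions across these enzymes. Of the 38 rows that passed edgeR's default filter on low counts, 7 were higher in HG (GSTO1, MGST1, GLRX2, GPX8, PRDX4, CAT and GSR) and 4 were lower (PRDX1, PRDX6, GSTM3 and SOD1) at a Benjamini-Hochberg adjusted p under 0.05, which is what "called" means from here on. These 11 are 28.9% of the tested members, against 15.4% called among all 14936 rows tested. In the higher direction the share was 18.4% of members and 7.62% of all rows, and in the lower direction 10.5% and 7.80%. None of the 38 was called with a fold change above 1.5, against 3.69% of all rows. The called changes were between 17.5% and 37.8% upward and between 17.8% and 24.2% downward. The groups did not overlap in 12 members, 10 of them higher in HG, against 13.6% of all rows, and 3 of these 12 (GPX3, GSTO2 and GSTT2) were not called. Of the 27 members not called, 7 had an unadjusted p under 0.05. The median log2 fold change of the members was 0.12, against 0.00 over all rows, with 30 values above 0 and 8 below, and it was 0.07 once the trends of the libraries with GC content and length had been removed (the GC correction). In bulk RNA, fewer cells of a kind and less RNA per cell cannot be told apart.

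**Figure D1:**
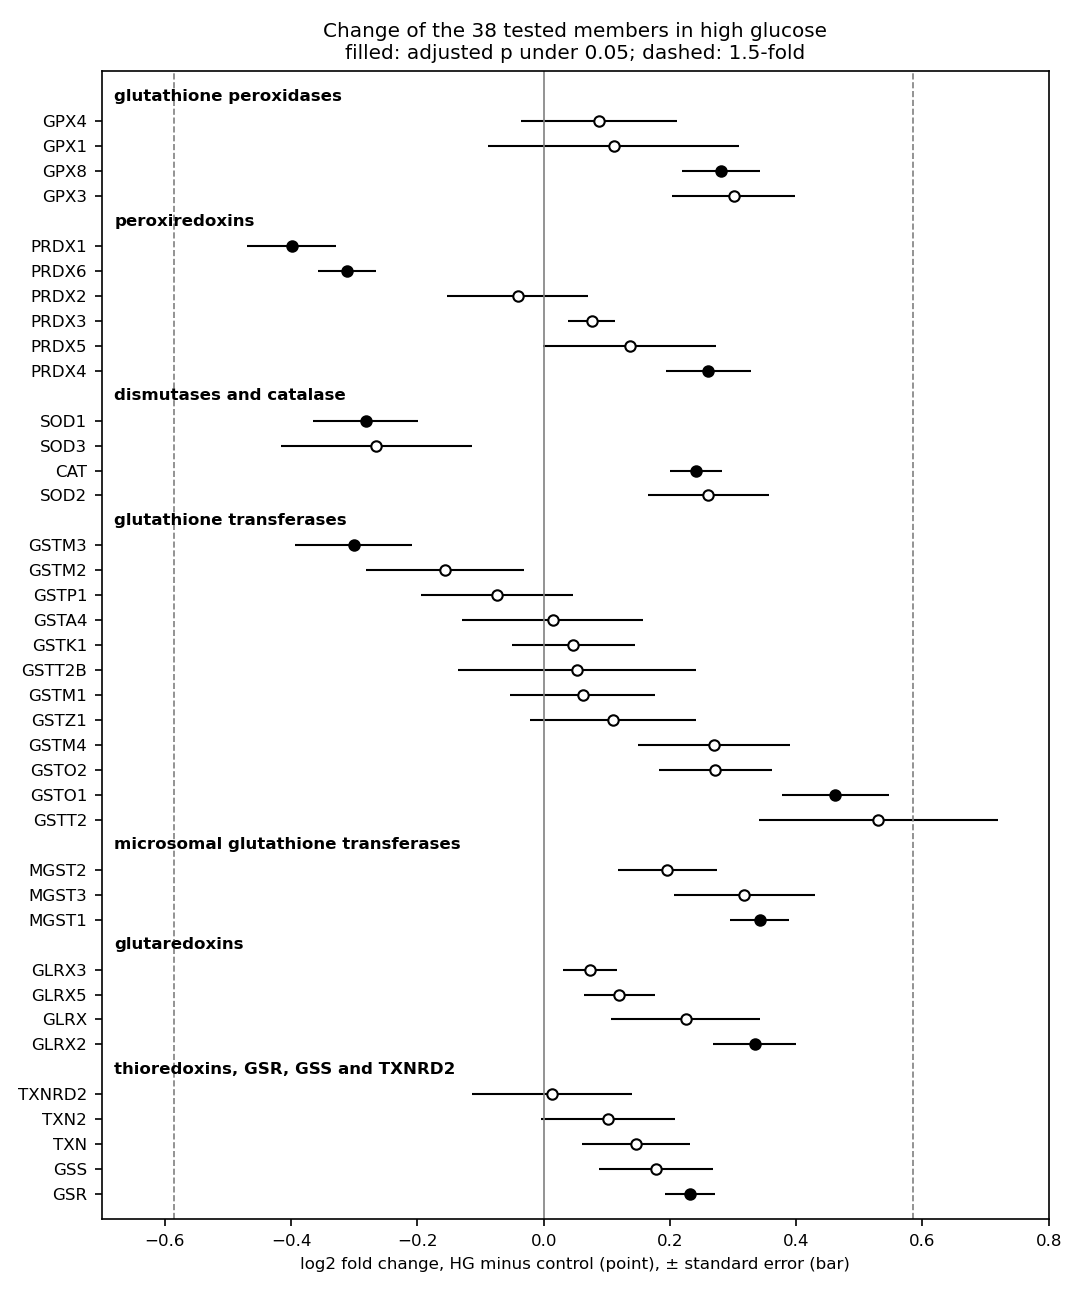
Log2 fold change of each of the 38 tested members in HG against control (horizontal axis), with its standard error as a bar, grouped by family. Filled points have an edgeR adjusted p under 0.05 and dashed lines mark a 1.5-fold change, beyond which no filled point lies. PRDX1 is the lowest at -0.40, and GSTO1, at 0.46, is the highest of the filled points.

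Among the glutathione peroxidases, 1 of 4 tested members was called (25%, against 15.4% of all rows). GPX8, a peroxidase anchored in the membrane of the endoplasmic reticulum, was at 69.0, 67.8, 67.4, 59.6 and 64.1 CPM in control replicates 1 to 5 and at 71.9, 79.1, 83.5, 87.1 and 76.7 CPM in HG_1 to HG_5. Every HG library lay above every control library, and the lowest HG library was HG_1. After the GC correction the groups overlapped, with control replicate 2 at 77.3 CPM and HG_5 at 74.5 CPM. The log2 fold change was 0.28 ± 0.06 (SE, n = 5 per group, edgeR adjusted p = 0.012). GPX4, which reduces lipid peroxides in membranes and had the highest FPKM of this family, was at 281, 409.7, 313, 309.7 and 291 CPM in control and at 438, 315, 331, 304 and 315 CPM in HG. The groups overlapped, and 1 library of each, control replicate 2 and HG_1, was far above the other 4. GPX4 had a log2 fold change of 0.09 ± 0.12 (SE, edgeR adjusted p = 0.717). GPX1, the widespread cytosolic peroxidase, had the same pattern, with 360.4 CPM in control replicate 2 against 212 to 222 in the other controls and 391.7 CPM in HG_1 against 196 to 259.6 in the other HG libraries. Its log2 fold change was 0.11 with the widest standard error of any tested member, 0.20. GPX3, the secreted peroxidase of plasma, was at 55.0 to 67.4 CPM in control and 68.3 to 95.4 CPM in HG, without overlap, and its log2 fold change of 0.30 ± 0.10 (SE) missed the threshold (edgeR adjusted p = 0.0615). GPX1, GPX3, GPX4 and the thioredoxin reductase TXNRD2 carry selenocysteine, and 0 of these 4 were called. With 15.4% of all rows called, this count says little about so few genes, and GPX3 was called in 7 of the 10 alternatives that keep the libraries or leave out both control replicate 2 and HG_1.

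The peroxiredoxins were called in both directions, with 2 members lower and 1 higher among 6 tested (33.3% and 16.7%, against 7.80% and 7.62% of all rows). PRDX1, the main peroxiredoxin of the cytosol, was at 477, 510.4, 437, 449 and 436 CPM in control and at 410, 335, 344, 328 and 334 CPM in HG. No HG library reached the lowest control, and the highest HG library was HG_1. PRDX1 fell by 0.40 ± 0.07 on the log2 scale (SE, n = 5 per group, edgeR adjusted p = 0.00358), or by 24.2%. In the annotation, exons of the gene MMACHC, on the other strand, cover 24.9% of the exon bases of PRDX1, and without a stated strand setting the reads of both cannot be told apart there. PRDX6, which takes its electrons from glutathione instead of thioredoxin and can also cleave phospholipids, was at 424, 432, 382, 410.3 and 401 CPM in control and at 352, 328, 329, 313 and 329 CPM in HG. Again no HG library reached a control. PRDX6 fell by 0.31 ± 0.05 on the log2 scale (SE, edgeR adjusted p = 0.00134), or by 19.4%.

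PRDX4, the peroxiredoxin of the endoplasmic reticulum, moved the other way. Its values were 75.2, 85.1, 78.5, 74.7 and 75.4 CPM in control and 108, 89.97, 92.2, 88.6 and 86.8 CPM in HG. The groups did not overlap, although control replicate 2 and HG_1 were the highest of their groups. The log2 fold change was 0.26 ± 0.07 (SE, edgeR adjusted p = 0.0241), and it remained called in 5 of the 10 fits that leave out 1 library, with adjusted p up to 0.0613. PRDX3, of the mitochondria, was at 310.4 ± 6.88 CPM in control and 327 ± 10.6 CPM in HG (SD, n = 5 each), a log2 fold change of 0.08 with the smallest standard error of the members, 0.04 (edgeR adjusted p = 0.204). PRDX2, of the cytosol, and PRDX5, found in mitochondria, peroxisomes and cytosol, had log2 fold changes of -0.04 ± 0.11 and 0.14 ± 0.14 (SE), with control replicate 2 and HG_1 the highest of their groups in both genes. The selenoprotein class above was drawn up after the values were known.

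**Figure D2:**
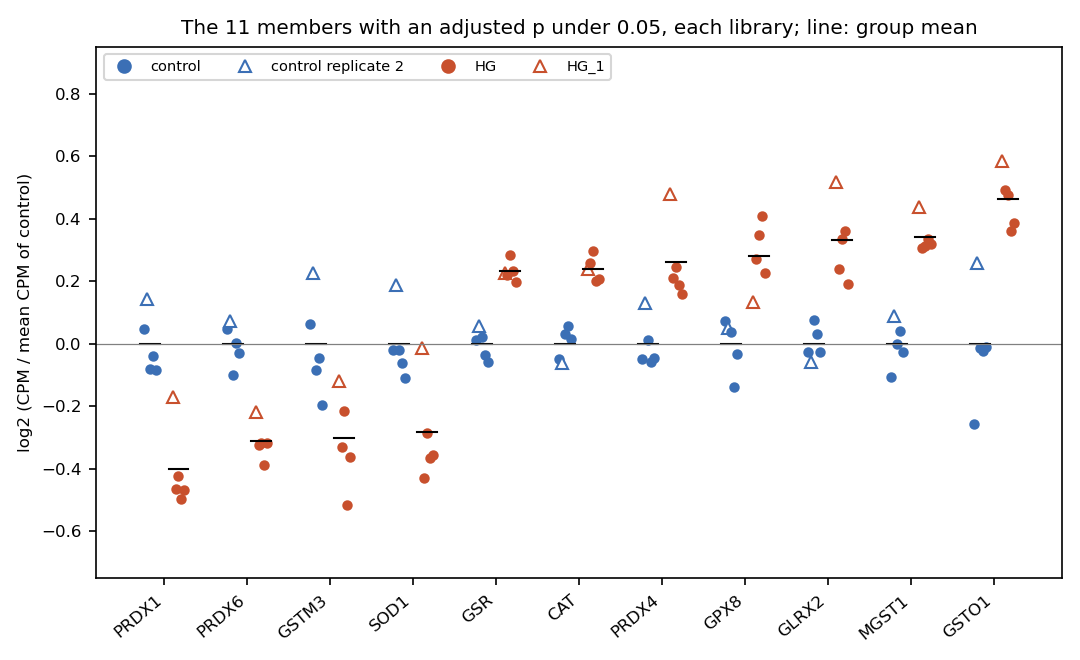
Each library's CPM for the 11 called members, as log2 of its ratio to the control mean (vertical axis), with the group means as lines. Control libraries are blue, HG libraries red, and open triangles mark control replicate 2 and HG_1. The triangle of HG_1 lies within the range of the controls for SOD1 and GSTM3, and it is the highest HG point for all but GSR, CAT and GPX8.

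Of the dismutases and catalase, catalase was called higher and SOD1 lower. CAT was at 73.5, 72.9, 77.7, 79.1 and 76.8 CPM in control and at 89.6, 90.9, 93.3, 87.4 and 87.7 CPM in HG, without overlap and with a spread of 2.71 and 2.43 CPM (SD). Its log2 fold change was 0.24 ± 0.04 (SE, n = 5 per group, edgeR adjusted p = 0.0029), and here neither HG_1 nor control replicate 2 was the highest of its group. SOD1, the copper and zinc dismutase of the cytosol, had the highest FPKM of this group on average over both media, with 169, 195, 169, 164 and 159 CPM in control and 169, 127, 140.4, 133 and 134 CPM in HG. HG_1 lay within the control range and the other 4 HG libraries lay below it. SOD1 fell by 0.28 ± 0.08 on the log2 scale (SE, edgeR adjusted p = 0.0435). Of the fits that leave out 1 library, SOD1 stayed called in the one without HG_1 (adjusted p = 0.00318) and in 0 of the other 9, where adjusted p reached 0.104. SOD2, the manganese dismutase of the mitochondrial matrix, was at 663 ± 64.4 CPM in control and 794 ± 106 CPM in HG (SD, n = 5 each) with overlap, a log2 fold change of 0.26 ± 0.10 (SE, edgeR adjusted p = 0.0954). SOD2 was called with DESeq2 (adjusted p = 0.0441) and in the limma fits of FPKM, but in 0 of the 10 fits that leave out 1 library. SOD3, the extracellular dismutase, was at 24.5 ± 3.17 and 20.4 ± 4.98 CPM (SD), a log2 fold change of -0.26 ± 0.15 (SE, edgeR adjusted p = 0.287). HG_1, at 28.9 CPM, was above 4 of the 5 controls for SOD3, and the other HG libraries were at 16.4 to 20.4 CPM, below all of them.

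Among the glutathione transferases, 2 of 12 tested members were called (16.7%, near the 15.4% of all rows), GSTO1 higher and GSTM3 lower. GSTO1, an omega class enzyme that reduces dehydroascorbate and mixed disulfides, had the largest called change of all members. Its values were 115, 164, 136, 135 and 136 CPM in control and 206, 193, 191, 176 and 179.7 CPM in HG. The highest control, replicate 2, lay below the lowest HG library. GSTO1 rose by 0.46 ± 0.08 on the log2 scale (SE, n = 5 per group, edgeR adjusted p = 0.00416), or 37.8%. GSTO2, its neighbour on chromosome 10, was measured at a far lower level, 8.99 to 9.64 CPM in control and 9.67 to 12.3 CPM in HG, without overlap. Its log2 fold change of 0.27 ± 0.09 (SE) was not called (edgeR adjusted p = 0.0645).

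GSTP1, the pi class enzyme, was the member with the highest FPKM of all, with a mean of 520.3. It was at 383, 528, 410.4, 404 and 408 CPM in control and at 530.4, 363, 394, 363 and 376 CPM in HG. The groups overlapped, with control replicate 2 and HG_1 far above the other 8 libraries. The log2 fold change was -0.07 ± 0.12 (SE, edgeR adjusted p = 0.752). GSTM3, a mu class enzyme, was at 47.2, 52.8, 42.6, 43.7 and 39.4 CPM in control and at 41.5, 35.9, 38.9, 31.6 and 35.1 CPM in HG. HG_1 lay above the lowest control. GSTM3 fell by 0.30 ± 0.09 on the log2 scale (SE, edgeR adjusted p = 0.0499), directly at the threshold, and stayed called in 2 of the 10 fits without 1 library (adjusted p up to 0.109).

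The other mu class genes lie in a cluster on chromosome 1 and share sequence: 38% of the 100-base windows of GSTM1 and 40.7% of those of GSTM2 occur in another gene of the cluster, so their counts are uncertain. GSTM1 was at 34.2 and 35.7 CPM (log2 fold change 0.06 ± 0.11, SE), GSTM2 at 19.5 and 17.5 CPM (-0.16 ± 0.12, and -0.30 with an edgeR adjusted p of 0.0101 when HG_1 alone was left out) and GSTM4 at 34.8 and 42.0 CPM (0.27 ± 0.12, edgeR adjusted p = 0.169) as means of control and HG. GSTT2 and GSTT2B, near-identical theta class copies on chromosome 22, share 78.6% and 80.0% of such windows. GSTT2 was at 0.667 to 0.852 CPM in control and 0.873 to 1.27 CPM in HG, from 22 to 57 counts per library, with a log2 fold change of 0.53 ± 0.19 (SE, edgeR adjusted p = 0.0872). GSTT2B was at 9.36 and 9.72 CPM on average with a log2 fold change of 0.05 ± 0.19 (SE), and counting may have divided the reads of the pair between these rows. GSTK1, the kappa class enzyme of mitochondria and peroxisomes, was at 90.9 and 94.0 CPM (log2 fold change 0.05 ± 0.10, SE). GSTZ1, the zeta class enzyme of tyrosine breakdown, was at 16.7 and 18.0 CPM (0.11 ± 0.13), and GSTA4, the alpha class enzyme that handles hydroxynonenal, at 4.35 and 4.38 CPM (0.01 ± 0.14). None of these was called, which does not show that the groups were alike.

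Several glutathione transferase and peroxidase genes are textbook targets of the antioxidant response element, which the transcription factor NRF2 binds. The core of this element, TGACNNNGC, was searched on both strands of the RefSeq windows that run from 250 bases before each start to 50 after it (GRCh38.p14), in which 38 of the 48 members have an entry. It was found in 13.3% of all 35116 windows and in 13.2% of the 53 windows of members. It lay in the windows of 7 members (GSTO1, GSTP1, GSTM1, GSTM5, GSTA4, MGST1 and GPX2), among them 2 of the 7 called members that have a window. The called members PRDX1, PRDX6, SOD1 and GSR have no window and were not searched. The shares are per window, not per gene. The sequence TGATGNAA, core of the element that ATF4 binds with a C/EBP partner, was searched in the same way, and was in 3.62% of all windows and in those of GPX5 and GPX8. These searches were made after the values were known. The 250 bases before the start are shown for GSTO1, the called member with the largest change, for GSTP1, the member of the highest level, which was not called, and for GPX2, a gut peroxidase that was near 0 here. Capitals mark the core, and in GPX2 it is on the other strand.
GSTO1 (chr10:104254642-104254891, plus strand): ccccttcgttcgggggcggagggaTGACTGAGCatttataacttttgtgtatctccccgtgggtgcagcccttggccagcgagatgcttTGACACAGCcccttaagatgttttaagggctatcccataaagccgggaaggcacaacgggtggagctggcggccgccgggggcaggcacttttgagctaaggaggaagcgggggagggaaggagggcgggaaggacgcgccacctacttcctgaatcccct
GSTP1 (chr11:67583562-67583811, plus strand): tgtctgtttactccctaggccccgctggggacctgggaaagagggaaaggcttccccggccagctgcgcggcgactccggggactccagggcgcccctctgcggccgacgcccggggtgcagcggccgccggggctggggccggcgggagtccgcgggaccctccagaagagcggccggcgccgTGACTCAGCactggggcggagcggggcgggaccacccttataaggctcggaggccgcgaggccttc
GPX2 (chr14:64942746-64942995, minus strand): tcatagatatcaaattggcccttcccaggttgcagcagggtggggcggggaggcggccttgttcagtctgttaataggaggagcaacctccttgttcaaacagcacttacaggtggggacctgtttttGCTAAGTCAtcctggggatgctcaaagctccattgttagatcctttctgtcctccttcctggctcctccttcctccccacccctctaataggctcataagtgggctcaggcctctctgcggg
The core stands at 226 and 161 bases before the start in GSTO1, at 66 in GSTP1 and at 122 in GPX2. Of the genes shown, which were picked with the values known, GSTO1 was higher in HG and GPX2 had at most 7 counts in any library. The groups of GSTP1 overlapped, but after the GC correction they did not, and GSTP1 was called lower (log2 fold change -0.11, edgeR adjusted p = 0.0193). Whether the core has a part in these levels was not tested.

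Of the microsomal glutathione transferases, which sit in membranes and are unrelated in structure to the soluble enzymes, MGST1 was called higher. It was at 274, 314, 296, 304 and 290.1 CPM in control and at 400.6, 366, 367, 373 and 369 CPM in HG, with a gap between the groups that is wider than the range within either, but the groups overlapped after the GC correction, which also lowered the log2 fold change to 0.21. MGST1 rose by 0.34 ± 0.05 on the log2 scale (SE, n = 5 per group, edgeR adjusted p = 0.000844), the smallest adjusted p of any member. MGST3 was at 104 ± 15.5 CPM in control and 129.9 ± 17.1 CPM in HG (SD), a log2 fold change of 0.32 ± 0.11 (SE, edgeR adjusted p = 0.0833), with control replicate 2 inside the HG range. MGST2, which can also form leukotriene C, was at 17.4 ± 1.61 and 19.97 ± 1.31 CPM (SD), a log2 fold change of 0.20 ± 0.08 (SE, edgeR adjusted p = 0.122).

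The glutaredoxins use glutathione to reduce disulfides and, in part of the family, to carry iron-sulfur clusters. GLRX2, of the mitochondria and nucleus, was at 33.3, 32.6, 35.7, 34.6 and 33.2 CPM in control and at 48.5, 40.02, 42.8, 43.5 and 38.6 CPM in HG, without overlap before the GC correction and with overlap after it (control replicate 3 at 37.6 and HG_5 at 37.2 CPM). Its log2 fold change was 0.33 ± 0.06 (SE, n = 5 per group, edgeR adjusted p = 0.00593), and exons of the gene TROVE2 on the other strand cover 7.7% of its exon bases. GLRX3, the family member with the highest FPKM, was at 89.3, 96.2, 90.4, 93.1 and 94.1 CPM in control and at 102, 92.5, 96.7, 101 and 95.2 CPM in HG. The groups overlapped, and the log2 fold change was 0.07 ± 0.04 (SE, edgeR adjusted p = 0.298). GLRX, of the cytosol, and GLRX5, of the mitochondrial cluster pathway, were at 11.9 and 46.8 CPM in control and at 13.9 and 50.8 CPM in HG, with log2 fold changes of 0.23 ± 0.12 and 0.12 ± 0.06 (SE, edgeR adjusted p = 0.244 and 0.19).

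Of the genes that make and recycle glutathione and thioredoxin, GSR was called. GSR, glutathione reductase, was at 68.9, 71.1, 69.5, 66.6 and 65.7 CPM in control and at 79.9, 79.7, 83.2, 80.4 and 78.3 CPM in HG, with a spread of 2.21 and 1.80 CPM (SD). All HG libraries lay above all controls. GSR rose by 0.23 ± 0.04 on the log2 scale (SE, n = 5 per group, edgeR adjusted p = 0.00299), but on the deposited FPKM values the means were 22.9 and 24.8 and the limma adjusted p reached 0.211. GSS, which completes glutathione synthesis, was at 64.8 ± 7.37 and 73.3 ± 7.53 CPM (SD), a log2 fold change of 0.18 ± 0.09 (SE, edgeR adjusted p = 0.23). TXN, the cytosolic thioredoxin and the member of this group with the highest FPKM, was at 139.8, 182, 145, 147 and 142 CPM in control and at 195, 155, 164, 160.4 and 162 CPM in HG. Control replicate 2 lay inside the HG range and the other 4 controls lay below it. The log2 fold change of TXN was 0.15 ± 0.09 (SE, edgeR adjusted p = 0.303). Its mitochondrial counterpart TXN2 and the mitochondrial reductase TXNRD2 were at 85.3 and 40.2 CPM in control and 91.6 and 40.6 CPM in HG, with log2 fold changes of 0.10 ± 0.11 and 0.01 ± 0.13 (SE).

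Of the 10 members below the filter, 7 (GPX5, GPX6, GPX7, GSTA1, GSTA3, GSTA5 and GSTT4) had 0 counts in every library, which allows up to 0.0925 CPM in the shallowest one. GPX2, GSTA2 and GSTM5 had at most 7 counts in a library. Of the 5 alpha class genes, which detoxify drugs in liver and gut, GSTA4 alone passed the filter.

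Levels between genes were compared per length, as deposited FPKM. The order by mean over the 10 libraries began with GSTP1 (520.3 FPKM), PRDX1 (397), PRDX5 (377), GPX4 (370.2) and MGST1 (341), and ended among the tested members with GSTT2 (0.760 FPKM). The order differed between the groups. In control, PRDX1 followed GSTP1 at 449.9 ± 25.2 FPKM (SD, n = 5), above PRDX5 (358 ± 57.1), GPX4 (357 ± 48.1) and MGST1 (298 ± 12.9). In HG, PRDX1 was at 344 ± 25.3 FPKM, below PRDX5 (396 ± 63.1), MGST1 (384 ± 7.67) and GPX4 (383 ± 52.8). PRDX1 was above PRDX5 and GPX4 in each of the 5 control libraries and below both in each of the 5 HG libraries, while PRDX5 and GPX4 differed by less than their spread in both groups. SOD1 was above SOD2 in control (176 ± 11.9 and 136 ± 20.5 FPKM) and below it in HG (146 ± 13.9 and 171 ± 15.8 FPKM), except in HG_1, where SOD1 was at 169 and SOD2 at 149.9 FPKM, and the genes were nearly level in control replicate 3 (175 and 172 FPKM). GSTO1 and PRDX6 likewise changed places, at 159.7 ± 16.9 and 224 ± 8.73 FPKM in control and at 223 ± 9.29 and 182 ± 4.43 FPKM in HG. The 8 highest members held between 58.6% and 65.2% of the members' summed FPKM. By family, the peroxiredoxins summed to 1511 ± 106 FPKM in control and 1420 ± 118 FPKM in HG (SD, n = 5 each). The microsomal glutathione transferases summed to 401 ± 25.2 FPKM in control and 512 ± 17.2 FPKM in HG, without overlap in these values (362 to 429 and 502 to 543 FPKM), which are not corrected for GC. For all members together the sums were 4239 ± 367 and 4426 ± 394 FPKM, a difference smaller than the spread between libraries.

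**Figure D3:**
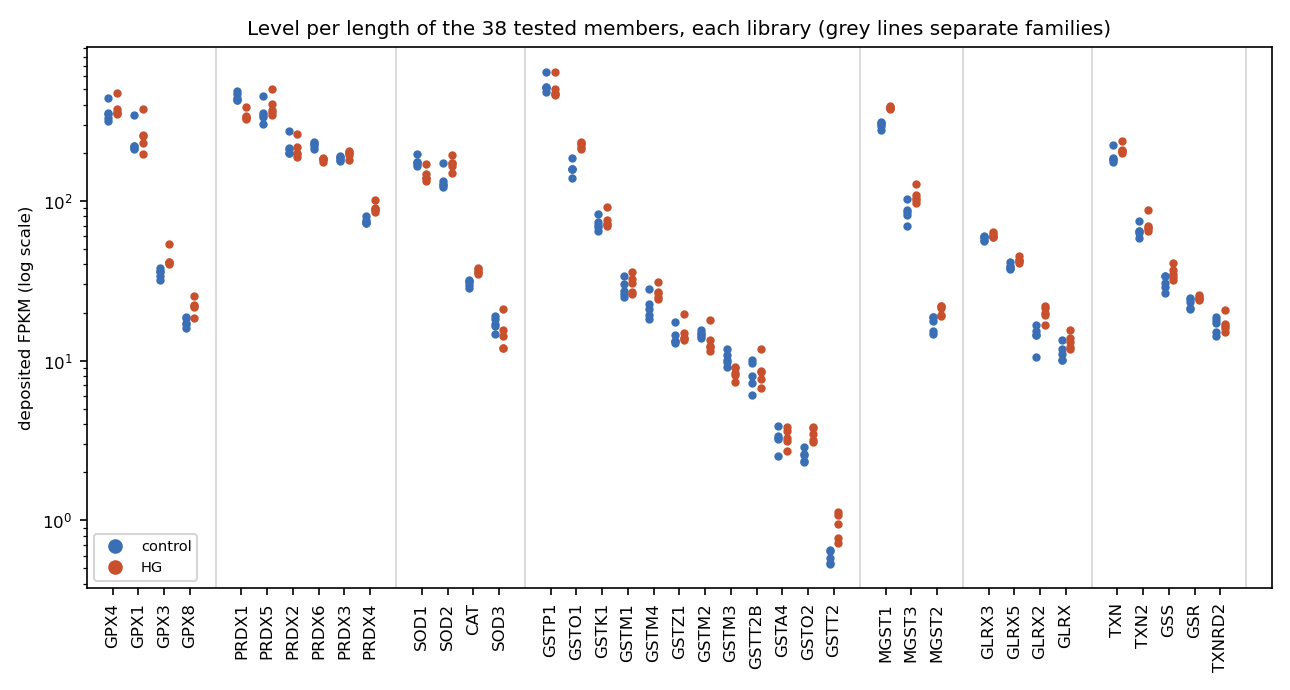
Deposited FPKM of the 38 tested members in each library on a log scale (vertical axis), blue for control and red for HG, ordered within each family by mean level. Mean levels run from 520.3 FPKM for GSTP1 to 0.760 FPKM for GSTT2, and the shift between the groups is small beside the differences between genes.

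**Figure D4:**
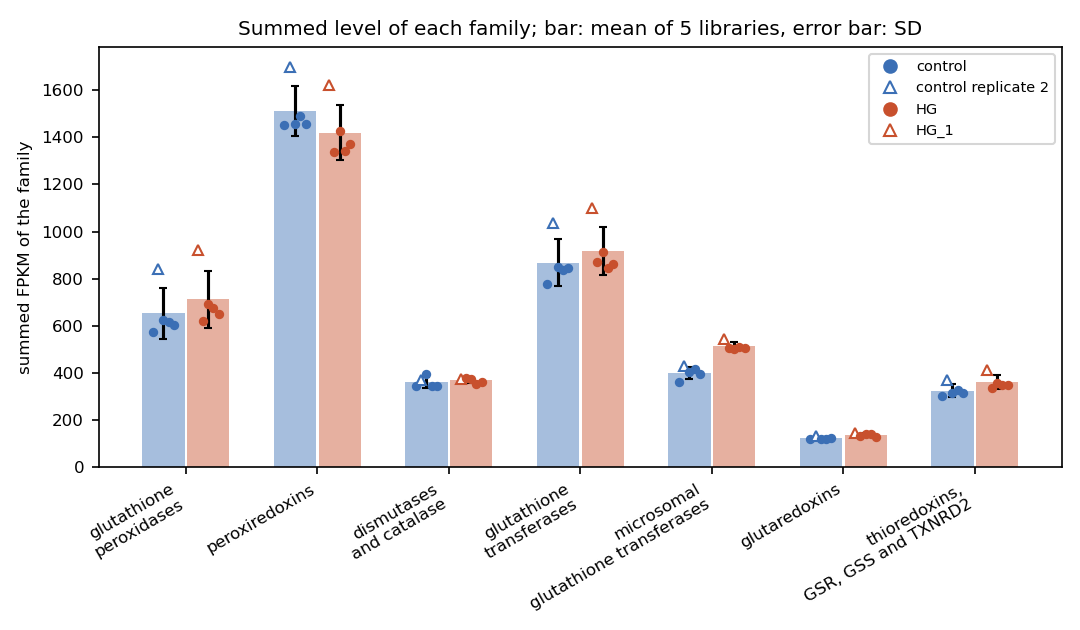
Summed FPKM of each family (vertical axis), as the mean of 5 libraries (bar, from 0) with the SD as error bar and each library as a point. Open triangles mark control replicate 2 and HG_1, which are the highest points of their groups for every family but the dismutases and catalase. The microsomal transferases separate, at 362 to 429 FPKM in control and 502 to 543 FPKM in HG.

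The GC trend of control replicate 2 and HG_1 was visible in the members. Among the 6 tested members with a transcript GC content of at least 60% (GPX1, GPX4, PRDX5, SOD3, GSTP1 and TXNRD2), control replicate 2 lay above the mean of the other controls in all 6, by a median of 0.43 on the log2 scale, and HG_1 above the mean of the other HG libraries by 0.52. Among the 8 with under 45% (GPX8, PRDX3, GSTA4, MGST1, GLRX, GLRX2, GLRX3 and TXN) the medians were 0.07 and 0.18, although GLRX (0.39 and 0.37) and TXN (0.34 and 0.28) lay well above them. SOD2 could not be matched to the annotation by its identifier and has no GC value. After each library's trend on GC and length was removed, 17 of 37 members were called (45.9%), against 29.3% of 13538 rows, with 12 higher and 5 lower (14.5% and 14.8% of all rows). GPX3 (log2 fold change 0.27), GSTM4 (0.29), GSTO2 (0.30), MGST3 (0.23) and GSS (0.17) were then called higher, SOD3 (-0.27) and GSTP1 (-0.11) lower, and GSTM3, with a log2 fold change of -0.30 as before and a standard error of 0.11 against 0.09, was no longer called (edgeR adjusted p = 0.0644). MGST1 stayed called (edgeR adjusted p = 0.0472), with control replicate 2 at 356 CPM and the HG libraries from 342 CPM upward. Of the members without overlap before the correction, GPX8, GSTO2, MGST1 and GLRX2 overlapped after it, while the groups of SOD1, SOD3 and GSTP1 overlapped before it and not after it. With control replicate 2 and HG_1 left out instead, 18 of 38 members were called, 12 higher and 6 lower, against 27.1% of all rows, among them all 11 of the full set. GPX3, SOD3, GSTM4 and MGST3 were added both ways, while GSTM2, GLRX5 and TXN were added only without these libraries and GSTO2, GSTP1 and GSS only by the correction. With 1 of these libraries left out, SOD3 (-0.42, edgeR adjusted p = 0.0158) was called without HG_1, and GSTM4 (0.38, 0.0204), MGST3 (0.40, 0.0212) and TXN (0.22, 0.0417) without control replicate 2. GPX3 was called without either one (0.34, edgeR adjusted p = 0.0437 without control replicate 2, and 0.20, 0.0351 without HG_1), and GSTO2 without HG_5 (0.32, 0.0385). SOD1 had a log2 fold change of -0.30 ± 0.04 (SE, edgeR adjusted p = 0.000569) without these libraries.

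**Figure D5:**
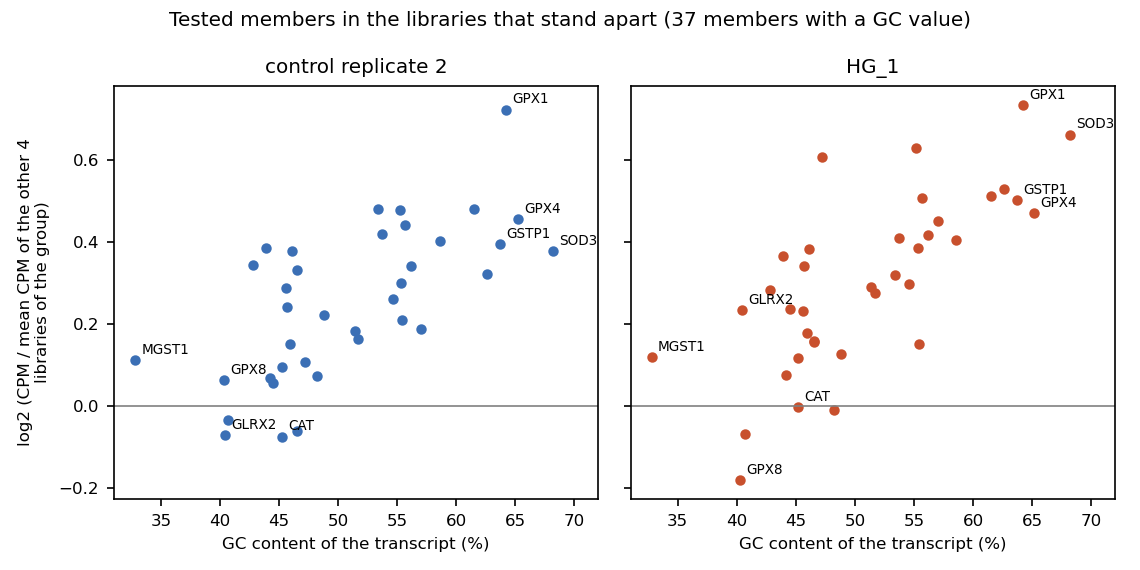
Deviation of control replicate 2 (left) and HG_1 (right) from the mean of the other 4 libraries of the group, in log2 units (vertical axis), against the GC content of the transcript in percent (horizontal axis), for 37 tested members. Members with a GC content of at least 60% lie at 0.32 to 0.72 on the left and 0.47 to 0.74 on the right, and those under 45% spread from -0.07 to 0.39 and from -0.18 to 0.37, with GLRX and TXN the highest of them on the left.

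Partner genes of these enzymes were called at 22.6%, 21 of 93 tested, of which 19 were higher in HG and 2 lower (PTGES and ABCC1, which fell by 0.34 and 0.45 on the log2 scale), against 15.4% of all rows. The share called was 31.2% for NADPH supply and 15.4% to 25% for each of the other lists, several of them near that of all rows. In the list of glutathione synthesis and breakdown, 3 of 14 were called, all higher, among them CTH, which makes cysteine from cystathionine (7.61 ± 0.553 CPM in control and 15.6 ± 1.88 CPM in HG, SD, log2 fold change 1.04, edgeR adjusted p = 0.000122), and CHAC1, which degrades glutathione (1.11 ± 0.449 and 3.56 ± 1.06 CPM, 1.67, adjusted p = 0.00402). Of 16 genes of NADPH supply, 5 were higher and 0 lower, and IDH1, the cytosolic and peroxisomal NADP-linked isocitrate dehydrogenase, was at 180 ± 8.07 and 277 ± 10.8 CPM (SD, log2 fold change 0.62, edgeR adjusted p = 2.86e-05). Of 17 thioredoxin and peroxiredoxin partners, 3 were higher and 0 lower, led by TXNIP, which binds and inhibits thioredoxin, at 0.978 ± 0.224 and 8.72 ± 2.76 CPM. Of 13 genes of metal delivery and peroxisome import, 2 were higher and 0 lower, among them PEX7, a peroxisome import receptor (3.84 ± 0.650 and 6.34 ± 1.03 CPM, log2 fold change 0.72, edgeR adjusted p = 0.00899). The other import genes of that list, PEX5, PEX13 and PEX14, had log2 fold changes of 0.13, -0.11 and -0.07 and were not called. Of 9 genes of selenoprotein synthesis, 2 were higher and 0 lower, and of 24 other glutathione-linked enzymes and exporters, 4 were higher and 2 lower. CTH, CHAC1, IDH1, TXNIP and PEX7 were the partner genes called with a fold change above 1.5, 5 of 93 tested, against 3.69% of all rows. None of the 38 tested enzymes reached that size with a call.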

How the data were processed

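RNA-seq of ARPE-19 cells was analysed from 2 deposited tables, one of read counts per gene, which the authors deposited without normalization, and one of FPKM, which the authors had scaled by transcript length and library size. The submitters' processing notes name fastp 0.20.1, HISAT2 2.2.1 and GRCh38. Libraries were made from Trizol-extracted total RNA with the VAHTS Universal V6 kit. The counting program, its strand setting and the annotation are not given in the sources used here. Of the rows, 2163 carry names with the prefix MSTRG and stayed in the table. The HG columns could be matched to their group but not to single labelled samples, so they are named by column.

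Counts were tested in R 4.3.3 with edgeR 4.0.16 (filterByExpr, TMM, quasi-likelihood test, Benjamini-Hochberg adjustment over 14936 rows, threshold 0.05). CPM are TMM-scaled. The members, the lists of partner and marker genes and the tests were chosen with earlier results of these data known, and the selenoprotein class, the limits on GC content and the motif search after the values were seen. Values in every library are given for each called member and for the member with the highest FPKM in each family. Partner genes are named when called with a fold change above 1.5. The 2 that were lower are named because of the direction, and PEX5, PEX13 and PEX14 as the other import genes beside PEX7. These were chosen after their values were seen. GC content, transcript length, overlaps and coordinates came from GENCODE release 29, in which 47 of 48 members matched by identifier, and promoter sequences from RefSeq (GRCh38.p14).

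The alternatives were no filter, a minimum of 10 counts in every library, RLE size factors, scaling by library size only, DESeq2 1.42.0, limma 3.58.1 on log2(FPKM + 1), on log2(FPKM + 0.1) and over genes averaging 1 FPKM or more, a lowess correction of each library's GC and length trend (span 0.3), control replicate 2 and HG_1 left out together, and each library left out in turn. The steps were tested on simulated counts. Floors of 3 counts cover counting error only.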

Additional observations from a re-analysis of the deposited data

Results flagged for a closer look

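In 23 of 76 groups of 5 libraries (38 members in each medium), 1 library was separated from the other 4 by more than Dixon's critical value for 5 samples, where chance gives about 1 in 20, or 3.8. In all 23 the library was the highest of its group, and it was control replicate 2 in 9 and HG_1 in 14. In control replicate 2 the values were 360.4 CPM for GPX1, 409.7 for GPX4, 267.4 for PRDX2, 195.1 for SOD1, 30.08 for SOD3, 42.86 for GSTM1, 528.4 for GSTP1, 21.19 for GSTZ1 and 182.3 for TXN. In HG_1 they were 95.42 CPM for GPX3, 438.4 for GPX4, 410 for PRDX1, 108.3 for PRDX4, 44.5 for GSTM1, 24.08 for GSTM2, 530.4 for GSTP1 and 23.67 for GSTZ1. They were also 400.6 CPM for MGST1, 159.7 for MGST3, 56.01 for GLRX5, 195.3 for TXN, 114.6 for TXN2 and 53.8 for TXNRD2. GPX4, GSTM1, GSTP1, GSTZ1 and TXN stood out in both libraries. These are the libraries in which the level rose with GC content, by 0.17 and 0.188 on the log2 scale per 10 percentage points, and the part of that trend in each value was not tested.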

How the results depend on the processing

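GPX8, PRDX1, PRDX6, CAT, GSTO1, MGST1 and GLRX2 stayed called in the same direction under all 20 alternatives. GSR lost its call in the 3 limma fits of FPKM, PRDX4 in 5 of the 10 fits without 1 library, SOD1 in 9 of these and with no filter (adjusted p = 0.0529), and GSTM3 in 8 of these, with no filter and with the GC correction. The number of members called, 11, was 17 with the GC and length correction, 18 without both control replicate 2 and HG_1, and 8 to 14 with 1 library left out, while the share of all rows called went from 15.4% to 29.3%, 27.1% and 10.9% to 19.9% in these fits. The 7 called higher became 11 with DESeq2 and 12, 12 and 11 in the limma fits of log2(FPKM + 1), log2(FPKM + 0.1) and over genes averaging 1 FPKM or more. In either direction, 16.7% of all rows were called with DESeq2, and 13.6%, 13.4% and 15.9% in these limma fits. The members called higher were 12 with the correction, 12 without both libraries and 6 to 11 with 1 left out, the 11 without control replicate 2. The 4 called lower became 2 with no filter, where 11.1% of all rows were called in either direction. They were 2 to 6 with 1 library left out, the 6 without HG_1. The 12 without overlap (13.6% of all rows) were 22 without both libraries (30.7% of all rows), 11 with the correction (21.8%) and 12 to 17 with 1 left out (14.5% to 22.9%), and smaller groups separate more often in any row. The 21 partner genes called were 40 with the correction, 35 without both libraries and 16 to 25 with 1 left out. The shares of all rows called in these fits were the 29.3%, 27.1% and 10.9% to 19.9% given above. The number with a fold change above 1.5 stayed 0 throughout, and TXNIP and ARRDC4 were at 2.97 to 3.29 and 0.69 to 0.81 on the log2 scale with 1 library left out, and called but at 1.51 and 0.37 with limma on log2(FPKM + 1), where the pseudocount is large beside their FPKM. The other causes of these differences were not tested.

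In the fits in which a member changed sign, it was not past the threshold. With the correction these were PRDX3 (-0.004), GSTA4 (-0.063), GSTK1 (-0.009) and GSTT2B (-0.013), and without both libraries GSTA4 (-0.024) and TXNRD2 (-0.037). With 1 library left out, the log2 fold change ranged from -0.066 to 0.289 for GPX1, -0.017 to 0.191 for GPX4, -0.129 to 0.05 for PRDX2, -0.064 to 0.084 for GSTA4, -0.035 to 0.114 for GSTK1 and -0.027 to 0.157 for GSTM1. It ranged from -0.186 to 0.015 for GSTP1, -0.094 to 0.163 for GSTT2B, -0.004 to 0.211 for GSTZ1 and -0.106 to 0.085 for TXNRD2. No paired analysis was made. The sample labels share no replicate numbers between the groups, and nothing states that the numbers of the deposited columns mark pairs. GSTT2, with at most 57 counts in a library, is limited by counting error, and FPKM give no depth of their own.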
